A study of Mus musculus with 12 samples.

Results

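The earliest response of cardiac fibroblasts to *Sox17* and *Erg* was read from 4 of the 12 bulk RNAseq libraries of this study, 2 control and 2 *Sox17*-*Erg* libraries at Day 3. They were selected by their treatment and time labels, and no measured value entered the choice. All 35727 deposited genes were considered, and 15506 had enough counts to be tested. The cells came from pooled hearts of neonatal C57BL/6J mice, were isolated as fibroblasts and kept in EGM2, an endothelial growth medium. The treated cells received retroviruses carrying *Sox17* and *Erg*, labelled iEC (induced endothelial cell), and the control cells are labelled fibroblast. The count columns of the control carry the prefix PMX, which is also the name of the retroviral backbone, and whether the control received an empty virus is not given in the sources used here. The study added a step that removes PECAM1-positive cells from the fibroblast isolates to limit primary endothelial cells, and the labels do not state it library by library. Nothing in the labels says whether the 2 libraries of a group came from separate isolations. The p-values measure the spread within groups, estimated over all 12 libraries and so also from later times, and this spread may be technical. The bulk libraries pool infected and uninfected cells, and fewer cells of a type cannot be told apart from less RNA per cell.

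*Sox17* encodes an HMG-box transcription factor of the SoxF family, which in the embryo acts in endoderm and in the endothelium of arteries. *Erg* encodes an ETS-family transcription factor that is present in most endothelial cells and is known for sustaining the expression of endothelial junction genes. Endothelial cells line blood vessels and are known by the junction protein VE-cadherin, by receptors for VEGF and angiopoietin, and, in arteries, by high Notch signaling. Fibroblasts of the heart arise largely from the epicardium under the transcription factor Tcf21 and make the collagenous matrix.

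The 2 retroviral factors were checked first. *Sox17* (ENSMUSG00000025902), at 4490931 to 4497354 on the minus strand of chromosome 1 in GRCm38, had 2 and 9 counts in the control libraries and 15431 and 10019 in the *Sox17*-*Erg* libraries. Scaled by library size and TMM factors to CPM, which relates a gene's counts to a fixed library total, this was 781 CPM in *Sox17*-*Erg* replicate 1 and 432 CPM in replicate 2, a log2 fold change of 11.35 with a standard error (SE) of 0.61. *Erg* (ENSMUSG00000040732), at 95359169 to 95586593 on the minus strand of chromosome 16, had 2 and 49 counts in control and 921 and 600 in *Sox17*-*Erg* libraries, a log2 fold change of 5.03 (SE 1.03, adjusted p = 0.017). *Erg* rose from 0.0728 and 2.27 CPM to 46.6 and 25.9 CPM, and the groups did not overlap. Without control replicate 1 its log2 fold change was 4.00 (adjusted p = 0.0745), without *Sox17*-*Erg* replicate 1 it was 4.5 (adjusted p = 0.113), and without control replicate 2 it was 8.84. Counts per gene hold both retroviral and endogenous transcripts, which cannot be told apart here.

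The libraries held 19011635 to 27088272 counts each, and replicates correlated by a Pearson's r of 0.991 in control and 0.989 in *Sox17*-*Erg* across genes, which are not independent replicates. Some endothelial genes differed between the control libraries. In replicate 2 against replicate 1, *Cdh5* was at 14.3 against 0.91 CPM, *Emcn* at 7.40 against 1.24 CPM and *Tie1* at 4.76 against 0.946 CPM, while *Kdr* (2.82 against 4.00 CPM) and *Tek* (3.65 against 3.97 CPM) went slightly the other way. The log2 fold changes of *Erg*, *Cdh5* and *Emcn* are therefore also given without control replicate 2. *Sox17*-*Erg* replicate 1 held more *Sox17* and *Erg* than replicate 2.

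At Day 3, 1115 genes (7.19% of those tested) were higher and 795 (5.13%) were lower in *Sox17*-*Erg* than in control, by edgeR's quasi-likelihood test at a Benjamini-Hochberg adjusted p under 0.05. The higher genes had a median log2 fold change of 0.85, and 474 of them rose by at least 1 and 124 by at least 3 on the log2 scale. The lower genes had a median of -1.15, and 460 of them fell by at least 1 and 53 by at least 3. Of the genes called, 44 of the higher genes had no more than 3 counts in either control library, and 19 of the lower genes had no more than 3 in either *Sox17*-*Erg* library. Of the higher genes, 947 (84.9%) were higher in *Sox17*-*Erg* replicate 1 than in replicate 2, where 47.4% of all tested genes were. Of the lower genes, 642 (80.7%) were lower in replicate 1, where 51.8% of all tested genes were. Most called genes thus differed more from control in the library with more of both factors, and the part of the factors' level in this was not tested. The counts of calls moved most when a single library was left out, to 204 higher and 174 lower genes without control replicate 2, 264 and 120 without control replicate 1, 205 and 66 without *Sox17*-*Erg* replicate 1, and 824 and 656 without *Sox17*-*Erg* replicate 2. None of these fits called a gene in the other direction. Each left 1 library in a group, which lowers the power, so a call can be lost with little move in the fold change. *Mcm6*, for example, had a log2 fold change of 1.13 and of 1.06 to 1.12 in the fits that lost its call. The ranges given below for a gene list without 1 library cover these 4 fits, and each low end was reached without a control library or without *Sox17*-*Erg* replicate 1. An unadjusted p under 0.05, quoted below for some lists, was met by 4675 of the 15506 tested genes. Of the 101 called genes that the rule in the processing section names and that are described here, 45 stayed called in all 4 of these fits, 8 in 3, 11 in 2, 27 in 1 and 10 in none. These 10 were *Cdh5*, *Sox4*, *Twist1*, *Pdpn*, *Smoc2*, *Dkk3*, *Il6*, *Cxcl5*, *Il33* and *Ndrg1*. The 27 that kept their call in a single fit were *Adamts9*, *Bmp4*, *Cdc45*, *Col16a1*, *Col7a1*, *Epha4*, *Ets2*, *Fgf2*, *Gja5*, *Hdac9*, *Hey1*, *Mcm6*, *Mcm7*, *Mybl2*, *Mylk*, *Nrp2*, *Ramp3*, *S100a4*, *Sesn1*, *Slc38a5*, *Sostdc1*, *Sox11*, *Sox9*, *Tbx20*, *Tcf21*, *Tgfbr3* and *Vegfd*, and the 11 that kept it in 2 were *Dio2*, *Erg*, *Heyl*, *Hmgb3*, *Itga11*, *Mmp19*, *Myc*, *Pmch*, *Sox6*, *Spon1* and *Timp2*. The size of the fold change moved by over 1.5 times without at least 1 library in 31 of the 101 genes. Leaving out a control library did so for *Bcl6b*, *Cdh5*, *Emcn*, *Erg*, *Il6*, *Prdm1*, *S1pr1*, *Sostdc1*, *Sox17*, *Sox6* and *Sphkap*. Leaving out *Sox17*-*Erg* replicate 1 did so for *Ackr4*, *Crym*, *Gja5*, *Hhex*, *Kdr*, *Pdgfb*, *Pmch*, *Sema3g*, *Sostdc1*, *Sox11*, *Sox6*, *Sphkap* and *Tmem200c*. Leaving out replicate 2 did so for *Ackr4*, *Adamtsl2*, *Dkk3*, *Gja5*, *Itga8*, *Kcnj5*, *Mylk*, *Pgm5*, *Pmch*, *Slc38a5*, *Sostdc1*, *Sox9*, *Tcf21* and *Tgfbr3*. DESeq2 called 1410 higher and 1290 lower genes. Requiring a mean of at least 1 CPM in a Day 3 group turned the balance of directions, with 958 higher and 1034 lower genes.

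**Figure D1:**
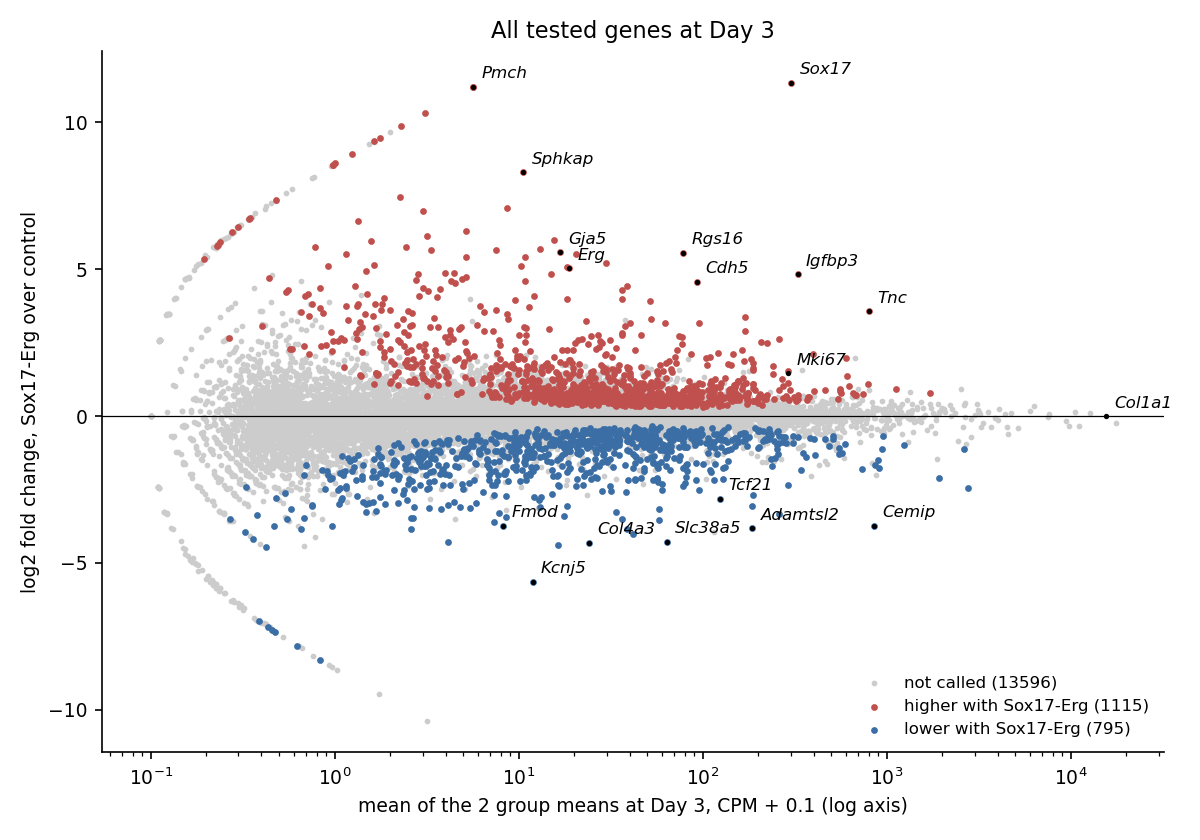
Each point is 1 of the 15506 tested genes at Day 3, with its mean level over the groups in CPM plus 0.1 on a log axis and its log2 fold change between *Sox17*-*Erg* and control on the vertical axis. Red points mark the 1115 higher and blue points the 795 lower genes, and the named points range from *Sox17* at 11.35 to *Kcnj5* at -5.64, with *Col1a1* at 0.00.

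Endothelial genes rose in part. Of 38 tested genes of a pan-endothelial list, 11 (28.9%) were higher and 1 (2.63%) lower, beside 7.19% and 5.13% of all tested genes. Their median log2 fold change was 0.54, where that of all tested genes was 0.01. Without 1 library, 7 to 9 were higher. *Kdr*, the main receptor of VEGF-A, had 4.00 and 2.82 CPM in the control libraries and 106 and 42.3 CPM in the *Sox17*-*Erg* libraries, a log2 fold change of 4.43 (SE 0.47, adjusted p = 0.001). *S1pr1*, a receptor for sphingosine-1-phosphate, had 1.96 and 5.09 CPM in control and 84.1 and 53.3 CPM in *Sox17*-*Erg* libraries (log2 fold change 4.31, SE 0.42, adjusted p = 0.00071). *Tek*, the angiopoietin receptor, had 3.97 and 3.65 CPM against 11.6 and 10.5 CPM (log2 fold change 1.54, SE 0.19, adjusted p = 0.0024). All 3 stayed called without any 1 of the 4 libraries.

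*Cdh5*, which encodes VE-cadherin, had 0.91 and 14.3 CPM in control and 208 and 148 CPM in *Sox17*-*Erg* libraries, a log2 fold change of 4.58 (SE 1.23, adjusted p = 0.043). The groups did not overlap, but the control libraries lay far apart, and the call was lost without any 1 of the 4 libraries, with adjusted p-values of 0.0549 (without control replicate 2, where the log2 fold change was 7.57) to 0.184. *Emcn*, the surface sialomucin endomucin, had 1.24 and 7.40 CPM against 67.8 and 67.9 CPM (log2 fold change 4.00, SE 0.69, adjusted p = 0.0094). Without control replicate 2 its log2 fold change was 5.73, and without *Sox17*-*Erg* replicate 1 its adjusted p was 0.0556. *Ramp3*, which shapes the adrenomedullin receptor, had no more than 3 counts in either control library and was at least 10.9-fold higher with *Sox17*-*Erg*. Its call was lost without either control library or without *Sox17*-*Erg* replicate 1, with adjusted p-values of 0.0683 to 0.109.

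Other endothelial markers had not moved past the threshold at Day 3. *Pecam1*, which encodes the junction protein CD31, had 12.6 and 16.7 CPM in control and 23.6 and 23 CPM in *Sox17*-*Erg* libraries (log2 fold change 0.67, adjusted p = 0.27). *Vwf*, the clotting protein stored in endothelial granules, had 0.873 and 2.27 CPM against 0.962 and 2.15 CPM, and the groups overlapped. *Cldn5*, an endothelial tight junction gene, had too few counts to be tested. The pan-endothelial gene called lower by the fit over all libraries was *Cd34*, a surface protein of progenitor and endothelial cells, also present on fibroblasts, from 62.4 and 68.3 to 8.55 and 13.3 CPM (log2 fold change -2.58). It was outside the rule for named genes and was chosen after its value was seen. Of the 38 pan-endothelial genes, 14 had a negative log2 fold change and 5 were lower at an unadjusted p under 0.05. DESeq2 called 3 lower and the fit with no filter on low counts 5. Without *Sox17*-*Erg* replicate 1, 0 were lower by edgeR, and without *Sox17*-*Erg* replicate 2, 3 were.

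Most tested arterial genes rose. Of 19 tested members of the arterial list, 11 (57.9%) were higher and 1 (5.26%) lower, beside 7.19% and 5.13% of all tested genes. Their median log2 fold change was 2.48. Without 1 library, 8 to 11 were higher and 0 lower by edgeR. *Gja5*, which encodes the arterial gap junction protein connexin 40, had 0.582 and 0.786 CPM in control and 52.1 and 13.2 CPM in *Sox17*-*Erg* libraries, a log2 fold change of 5.58 (SE 0.99, adjusted p = 0.011). *Sema3g*, a secreted semaphorin of arterial endothelium, had 0.291 and 0.277 CPM against 19.7 and 9.35 CPM (log2 fold change 5.64, SE 0.71, adjusted p = 0.0024). *Slit2*, a guidance ligand for Robo receptors, had 38.1 and 41.5 CPM against 337 and 257 CPM (log2 fold change 2.90, SE 0.29). The control libraries were within 1.5 times of each other for these genes, while *Gja5* and *Sema3g* were higher in *Sox17*-*Erg* replicate 1 than in replicate 2.

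Notch is a receptor whose ligands sit on neighboring cells and whose targets are the Hey repressors. In the Notch list, 5 of 21 tested genes (23.8%) were higher and 0 were lower by edgeR, beside 7.19% and 5.13% of all tested genes. By DESeq2 and at an unadjusted p under 0.05, 0 were lower, and the median log2 fold change was 0.32. *Hey1*, a transcriptional repressor induced by Notch, had 0.182 and 0.231 CPM in control and 6.78 and 3.53 CPM in *Sox17*-*Erg* libraries (log2 fold change 4.62, SE 0.78, adjusted p = 0.0087). Its relative *Heyl* had 8.33 and 7.58 CPM against 67.9 and 75.8 CPM (log2 fold change 3.17, SE 0.48), and *Hey2* rose by 2.51 (SE 0.34). The fifth was the receptor *Notch3* (log2 fold change 1.19, SE 0.26). Without 1 library, 2 to 4 were higher. *Jag1*, a Notch ligand, had 60.8 and 84.1 CPM against 503 and 395 CPM (log2 fold change 2.63, SE 0.30, adjusted p = 0.0014). *Dll4*, a ligand of tip cells and of arterial endothelium, had only 0.0364 and 0.231 CPM against 1.57 and 0.905 CPM (log2 fold change 3.26, SE 1.61, adjusted p = 0.21). It did not pass the threshold except with no filter on low counts (adjusted p = 0.00225). The calls of *Gja5* and *Hey1* were lost without either control library or without *Sox17*-*Erg* replicate 1, with adjusted p-values of 0.0623 to 0.085.

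**Figure D2:**
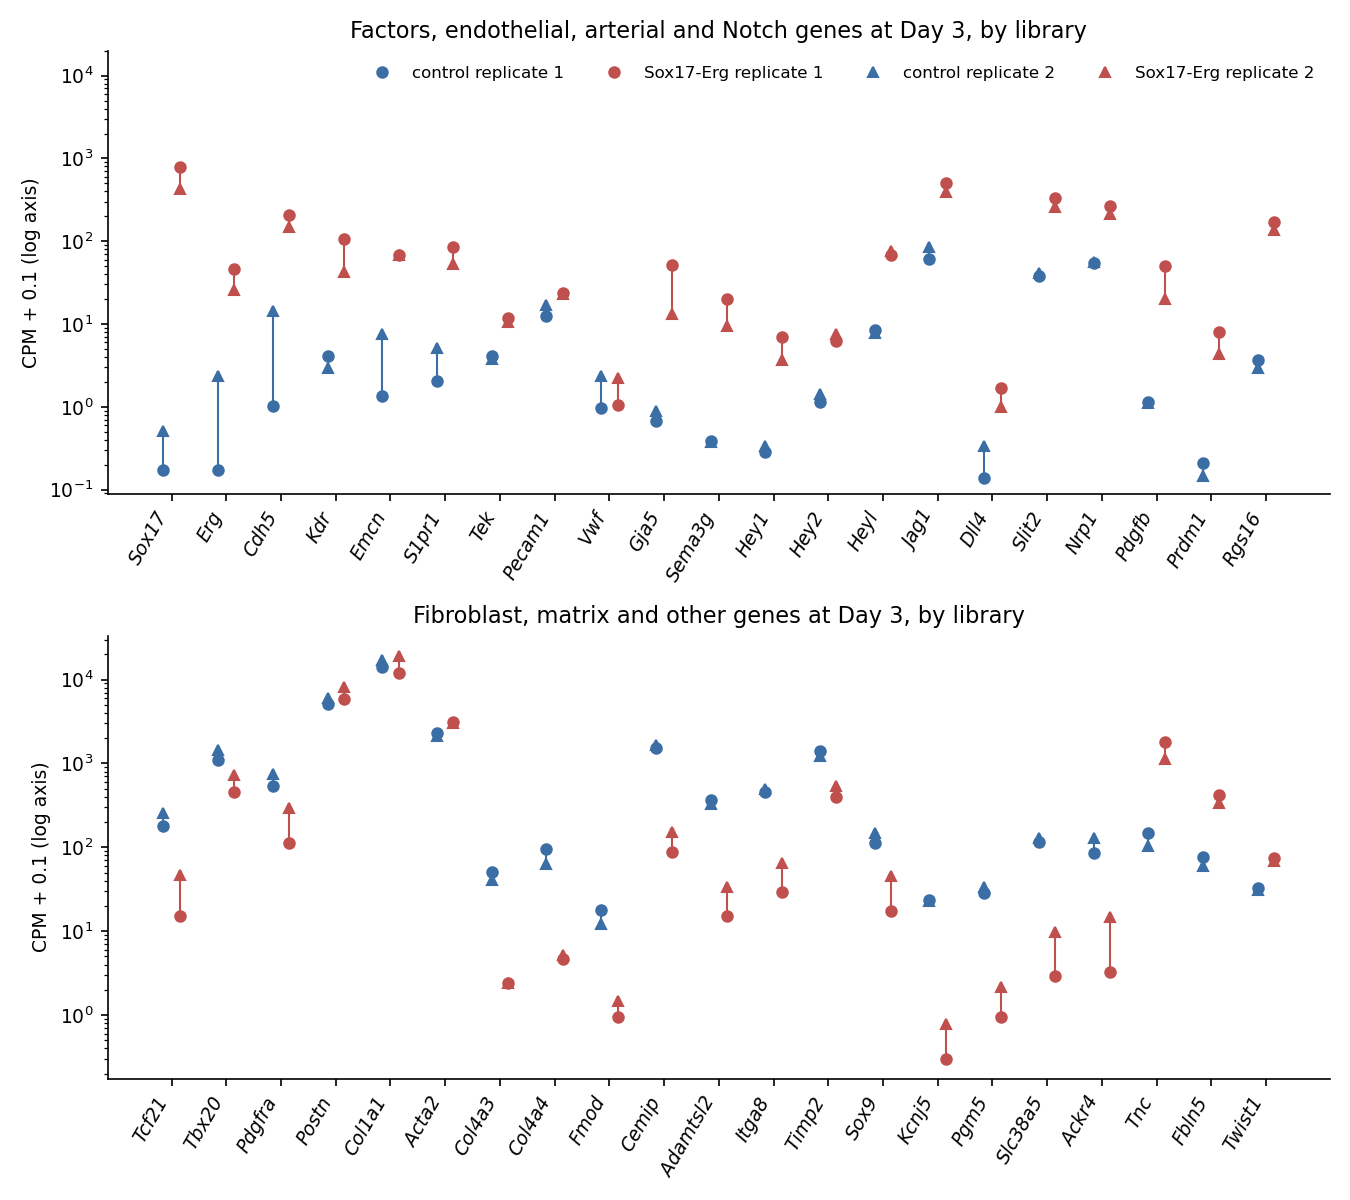
Level of each gene in CPM plus 0.1 on a log axis in the 2 control (blue) and 2 *Sox17*-*Erg* (red) libraries at Day 3, with circles for replicate 1, triangles for replicate 2 and a line joining replicates. Most endothelial, arterial and Notch genes in the upper panel had both red points above both blue points, except *Vwf*, and in the lower panel *Col1a1* and *Postn* lay close together while *Col4a3*, *Kcnj5* and *Cemip* were separated by more than 3 on the log2 scale.

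Of 23 tested genes of VEGF, angiopoietin and adrenomedullin signaling, 6 (26.1%) were higher and 3 (13%) lower, beside 7.19% and 5.13% of all tested genes, with a median log2 fold change of -0.27. Of 32 guidance genes, 10 (31.2%) were higher and 4 (12.5%) lower, with a median of 0.05. Without 1 library these counts were 4 to 5 and 1 to 4, and 5 to 9 and 0 to 2. *Nrp1*, a coreceptor of VEGF-A and semaphorins, had 54.7 and 55.8 CPM in control and 264 and 211 CPM in *Sox17*-*Erg* libraries (log2 fold change 2.11, SE 0.24, adjusted p = 0.0015). Its relative *Nrp2*, used in lymphatic and venous endothelium, fell, from 176 and 190 to 61.7 and 98.8 CPM (log2 fold change -1.19, SE 0.30, adjusted p = 0.036). *Vegfd*, a ligand of the lymphatic VEGF receptor, fell from 197 and 182 to 35.8 and 47.1 CPM (log2 fold change -2.19). The calls of *Nrp2* and *Vegfd* stayed in only 1 of the 4 fits that leave out a library.

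Among the PDGF ligands *Pdgfb* and *Pdgfd* rose, while *Pdgfa* (log2 fold change -0.42, adjusted p = 0.443) and *Pdgfc* (-0.65, adjusted p = 0.228) did not pass the threshold. *Pdgfb*, which endothelial cells use to recruit mural cells, had 1.06 and 1.02 CPM in control and 50.5 and 19.9 CPM in *Sox17*-*Erg* libraries (log2 fold change 5.08, SE 0.46, adjusted p = 0.00057). *Pdgfd* had 7.68 and 6.15 CPM against 47.6 and 45.8 CPM (log2 fold change 2.75, SE 0.26). Of the fibroblast growth factors, *Fgf7* (log2 fold change -1.98) and *Fgf2* (-1.05) fell. The list of FGF, PDGF and ERK feedback genes held 2 higher (7.41%) and 3 lower genes (11.1%) of 27, near the 7.19% of all tested genes that were higher, with 5.13% lower. Without 1 library it held 2 higher and 0 to 2 lower. Among 13 venous and lymphatic genes, 4 (30.8%) were higher and 2 (15.4%) lower, but 0 and 0 without control replicate 1, control replicate 2 or *Sox17*-*Erg* replicate 1. *Bmp4* (log2 fold change 1.48) was among the 4 higher genes. The 2 lower genes were *Nrp2* and *Pdpn*, podoplanin of lymphatic endothelium and fibroblasts. *Pdpn* was at 110 and 92.8 CPM in control and 59.2 and 49.4 CPM in *Sox17*-*Erg* libraries.

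Other transcription factor genes were called at Day 3. Among 11 other tested Sox factors, 4 (36.4%) were higher and 2 (18.2%) lower, beside 7.19% and 5.13% of all tested genes, and without 1 library 1 to 3 and 1 to 2 were. *Sox11* had 1.71 and 1.29 CPM in control and 15.1 and 7.28 CPM in *Sox17*-*Erg* libraries (log2 fold change 2.88), *Sox6* rose by 2.62 and *Sox4* by 1.61. *Sox9*, a chondrogenic factor also present in fibroblasts, fell from 114 and 148 to 17.4 and 45.1 CPM (log2 fold change -2.06, SE 0.48, adjusted p = 0.028). Of 17 other ETS factors 1 (5.88%) was higher, a share near that of all genes. It was *Ets2*, with a log2 fold change of 0.52, a call lost in a fit of the Day 3 libraries alone (adjusted p = 0.0573) and with no filter on low counts (0.0632). Of 16 transcription factors known to act beside Sox and ETS factors in endothelium, 3 (18.8%) were higher and 2 (12.5%) lower, and without 1 library 1 to 2 and 0 to 1 were. Among them were the homeobox gene *Hhex*, at 0.546 and 0.694 CPM against 5.57 and 2.84 CPM (log2 fold change 2.76), and the repressor *Bcl6b* (log2 fold change 2.58), whose call was lost in the Day 3 libraries alone (adjusted p = 0.0658) and without *Sox17*-*Erg* replicate 1 (0.0886). Leaving out 1 library ended the calls of *Sox11* and *Sox9* in 3 of 4 fits and that of *Sox4* in all 4, with an adjusted p for *Sox9* between 0.0806 and 0.165 where it was lost.

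Several of the largest rises were in genes best known from other tissues. *Pmch*, which encodes the precursor of the neuropeptide melanin-concentrating hormone, had 0 counts in both control libraries and 19 and 3.19 CPM in *Sox17*-*Erg* libraries. The mean of the *Sox17*-*Erg* libraries was 89.6-fold the floor of 3 counts per library. *Tmem28*, a transmembrane protein gene, also had 0 counts in both control libraries and 12.8 and 9.31 CPM with the factors, at least 89.0-fold higher. *Sphkap*, an anchoring protein of protein kinase A, had 0 and 0.139 CPM against 30.3 and 11.55 CPM, with a mean at least 169-fold higher. *Sost*, the secreted Wnt inhibitor sclerostin, was at least 35.4-fold higher by its mean. Their zero or near-zero control levels make the fitted fold changes depend on the prior count, and the bounds above do not. The bounds use the mean of the *Sox17*-*Erg* libraries, so a single library can lie under them. The call of *Pmch* was lost without either control library (adjusted p = 0.0719 and 0.0705).

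*Rgs16*, which turns off G-protein signals, had the lowest p-value of all genes, with 3.60 and 2.82 CPM in control and 168 and 138 CPM in *Sox17*-*Erg* libraries (log2 fold change 5.57, SE 0.24, adjusted p = 3.1e-05). Its relative *Rgs8* had 0.146 and 0.0925 CPM against 12.1 and 7.89 CPM (log2 fold change 6.31, SE 0.65). *Gna14*, a G-protein alpha subunit, had 0.146 and 0.0925 CPM against 22.2 and 11.8 CPM (log2 fold change 7.07, SE 0.53, adjusted p = 0.00042). All 3 stayed called without any 1 library.

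*Dio2*, the deiodinase that activates thyroid hormone, had 3 and 3 counts in control. It rose from 0.109 and 0.139 to 4.86 and 7.84 CPM (log2 fold change 5.65). *Crym*, a thyroid hormone binding protein, had 0.473 and 0.509 CPM against 34.5 and 16.5 CPM (log2 fold change 5.69, SE 0.46). *Prdm1*, the repressor Blimp-1, was at least 49.1-fold higher and *Tmem200c* at least 46.5-fold. *Slc35f1* rose by 6.01, *Fbxo40*, an F-box protein gene, by 4.52, and *Gsta4*, a glutathione transferase, by 3.91, from 7.42 and 5.36 to 98.6 and 94.2 CPM.

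Promoter windows of RefSeq (GRCm38.p6, 250 bases before to 50 after the start) were searched on both strands for the ETS motifs CAGGAAG and CCGGAAG and the Sox motifs ACAATGG and ACAAAGG. A window was given for 11171 of the 14446 tested protein-coding genes. An ETS motif was in 27.3% of the 872 higher genes with a window, in 28% of the 601 lower genes and in 30.4% of all tested genes with one. The pooled shares differ from those of the single motifs. CCGGAAG was in 16.7% of the higher, 9.48% of the lower and 18.4% of all, and CAGGAAG in 12%, 19.5% and 14.6%. Of the 92 genes higher by at least 3 on the log2 scale 16.3% held an ETS motif, and of the 38 lower by at least 3, 18.4%. The median GC content of the windows was 57.9% and 55.8% in these 2 sets and 60.3% in all, and its part in the shares was not tested. A Sox motif was in 10.4% of the higher, 8.65% of the lower and 7.79% of all. Of the 83 genes described here that have a window, 22 had a match in the 250 bases before the start. *Gja5*, *Sema3g*, *Kdr*, *Tek* and *Rgs16* had none. These are descriptions of letters within a short window, and not of binding.

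The 250 bases before the start are shown for 3 strongly changed genes, chosen because their windows hold a match, in lower case with the match in capitals and read 5′ to 3′ on the gene's strand. *Emcn* (chr3:137340828-137341077, plus strand) holds CAGGAAG on the strand opposite to the gene, 174 to 168 bases before the start. *Gna14* (chr19:16435417-16435666, plus strand) holds CCGGAAG on the gene's strand, 57 to 51 bases before the start. *Kcnj5* (chr9:32344345-32344594, minus strand), holds ACAATGG on the opposite strand, 190 to 184 bases before the start.
Emcn: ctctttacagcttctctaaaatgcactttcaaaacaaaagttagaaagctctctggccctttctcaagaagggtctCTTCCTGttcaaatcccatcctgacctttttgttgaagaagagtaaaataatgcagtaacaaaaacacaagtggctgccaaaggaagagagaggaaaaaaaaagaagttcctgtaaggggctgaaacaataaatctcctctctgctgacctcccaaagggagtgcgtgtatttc
Gna14: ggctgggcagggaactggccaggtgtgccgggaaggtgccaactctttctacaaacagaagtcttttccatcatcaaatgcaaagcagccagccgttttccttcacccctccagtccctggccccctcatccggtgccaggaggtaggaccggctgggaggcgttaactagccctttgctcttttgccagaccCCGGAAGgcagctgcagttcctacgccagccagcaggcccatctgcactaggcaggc
Kcnj5: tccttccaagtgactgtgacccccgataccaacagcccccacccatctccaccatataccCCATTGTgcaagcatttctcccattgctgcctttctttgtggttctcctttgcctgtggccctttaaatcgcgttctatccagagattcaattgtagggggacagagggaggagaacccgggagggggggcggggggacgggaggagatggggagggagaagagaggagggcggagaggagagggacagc

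A few genes of the fibroblast state fell. *Tcf21*, the transcription factor of epicardium-derived fibroblasts, had 179 and 256 CPM in control and 15 and 46.6 CPM in *Sox17*-*Erg* libraries, a log2 fold change of -2.82 (SE 0.67, adjusted p = 0.029). *Tbx20*, a cardiac T-box factor, fell from 1114 and 1453 to 452 and 724 CPM (log2 fold change -1.13, SE 0.24, adjusted p = 0.019), as did *S100a4* (log2 fold change -1.29), a calcium-binding protein of motile mesenchymal cells. Both lost their calls without either control library or without *Sox17*-*Erg* replicate 1, *Tbx20* with adjusted p-values of 0.0523 to 0.127 and *S100a4* of 0.0685 to 0.177. *Twist1*, a mesenchymal factor, rose from 32.6 and 31.3 to 75 and 68.9 CPM (log2 fold change 1.17). *Pdgfra*, the PDGF receptor of fibroblasts, had 544 and 756 CPM against 114 and 292 CPM, with a log2 fold change of -1.68 that missed the threshold (SE 0.55, adjusted p = 0.078). It passed with the replicate number as a block (adjusted p = 0.0246), by DESeq2 (0.033), with no filter on low counts (8.11e-05) and without *Sox17*-*Erg* replicate 2 (0.0496).

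Other abundant fibroblast genes did not pass the threshold. *Col1a1*, the main collagen, had 14014 and 17141 CPM in control and 11941 and 19233 CPM in *Sox17*-*Erg* libraries (log2 fold change 0.00), and the groups overlapped. *Postn*, the matricellular protein of activated fibroblasts, had a log2 fold change of 0.35 (adjusted p = 0.4), and *Acta2*, the smooth muscle actin of myofibroblasts, 0.45 (adjusted p = 0.59). Of 30 fibroblast identity genes, 1 was higher and 3 were lower, shares of 3.33% and 10% beside 7.19% and 5.13% of all genes, and the median log2 fold change was -0.34. With only the 4 Day 3 libraries in the fit 7 of them were lower, and with DESeq2 12, where these fits called 5.77% and 9.21% of all genes lower. With the replicate number as a block, which called 6.64% of all genes lower, 8 were lower, with no filter on low counts (5.19%) 13, and without 1 library 0 to 9, the 9 being without *Sox17*-*Erg* replicate 2. *Tcf21* lost its call without either control library or without *Sox17*-*Erg* replicate 1, with adjusted p-values of 0.0806 to 0.19.

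Among 26 collagen chains, 0 were higher and 4 (15.4%) lower by the fit over all libraries, beside 7.19% and 5.13% of all tested genes. At an unadjusted p under 0.05, 2 were higher and 9 lower, and by DESeq2 1 and 9. With the replicate number as a block 2 were higher and 7 lower, and with no filter on low counts 2 and 10. Without 1 library, 2 to 8 were lower. *Col4a3* and *Col4a4*, which encode chains of a specialized basement membrane collagen, lie head to head on chromosome 1 with starts 72 bases apart, and both fell. *Col4a3* had 51.2 and 40.6 CPM in control and 2.33 and 2.28 CPM in *Sox17*-*Erg* libraries (log2 fold change -4.31, SE 0.27, adjusted p = 0.00027). *Col4a4* had 95.1 and 62.8 CPM against 4.5 and 5.17 CPM (log2 fold change -4.03, SE 0.29). *Col7a1*, the collagen of anchoring fibrils, also fell (log2 fold change -1.67), as did *Col16a1* (log2 fold change -0.70).

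Of 30 matrix glycoproteins and proteoglycans, 4 (13.3%) were higher and 3 (10%) lower, beside 7.19% and 5.13% of all tested genes, and their median log2 fold change was 0.01. Without 1 library these counts were 2 to 4 and 1 to 3. *Tnc*, tenascin C of wounds and embryonic tissue, had 146 and 103 CPM in control and 1825 and 1127 CPM in *Sox17*-*Erg* libraries (log2 fold change 3.57, SE 0.45, adjusted p = 0.0023). *Fbln5*, an elastic fiber protein, rose from 76.2 and 59.4 to 424 and 333 CPM (log2 fold change 2.48). *Fmod*, the collagen-binding fibromodulin, fell from 18 and 12.2 to 0.86 and 1.38 CPM (log2 fold change -3.73, SE 0.30). The matrix proteins *Spon1* (log2 fold change -3.85) and *Smoc2* (log2 fold change -2.36) fell too.

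Of 29 tested genes of matrix crosslinking and remodeling, 6 (20.7%) were lower and 1 (3.45%) higher, beside 5.13% and 7.19% of all tested genes. Their median log2 fold change was -0.40. Without 1 library, 1 to 7 were lower. *Timp2*, an inhibitor of metalloproteinases, fell from 1412 and 1218 to 399 and 535 CPM (log2 fold change -1.49, SE 0.23). The metalloproteinase genes *Adamts1* (log2 fold change -1.66), *Adamts9* (-1.78) and *Mmp19* (-1.47) fell. *Cemip*, which degrades hyaluronan, fell from 1515 and 1668 to 86.6 and 153 CPM (log2 fold change -3.73, SE 0.48, adjusted p = 0.0027). *Adamtsl2*, a secreted protein of microfibrils, fell from 362 and 330 to 14.9 and 34.0 CPM (log2 fold change -3.82).

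Among 20 contractile and adhesion genes of myofibroblasts and smooth muscle, 2 (10%) were higher and 3 (15%) lower, beside 7.19% and 5.13% of all tested genes, and their median log2 fold change was -0.07. Without 1 library 0 to 1 and 1 to 3 were. *Itga8*, an integrin of contractile mesenchyme, fell from 457 and 493 to 29.5 and 65.0 CPM (log2 fold change -3.33, SE 0.49, adjusted p = 0.0052). *Mylk*, myosin light chain kinase, fell as well (log2 fold change -2.11), while *Itga11*, a collagen receptor, rose from 10.9 and 11.1 to 22.9 and 41.3 CPM (log2 fold change 1.55). Outside these lists, *Kcnj5*, a potassium channel of the cardiac atria gated by G proteins, had the largest fall of the genes described here, from 23.4 and 22.9 to 0.202 and 0.689 CPM (log2 fold change -5.64, SE 0.67, adjusted p = 0.0017). *Pgm5*, a cytoskeletal protein of adherens junctions, (log2 fold change -4.39), *Slc38a5*, an amino acid transporter (-4.28), and *Ackr4*, a scavenger receptor for chemokines (-3.54), fell too. Of these, *Slc38a5* lost its call without either control library or without *Sox17*-*Erg* replicate 1, with adjusted p-values of 0.0672 to 0.155.

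In TGF-beta and BMP signaling, 10 of 32 tested genes (31.2%) were higher and 3 (9.38%) lower, but 3 and 0 without control replicate 1, control replicate 2 or *Sox17*-*Erg* replicate 1. Of all tested genes, 7.19% were higher and 5.13% lower in the fit over all libraries. *Fst*, the activin inhibitor follistatin, rose from 7.09 and 4.99 to 41.5 and 26.8 CPM (log2 fold change 2.49, SE 0.28, adjusted p = 0.0014). The ligands *Bmp4* and *Gdf6* rose by 1.48 and 1.29, while the coreceptor *Tgfbr3* fell (log2 fold change -2.25), from 83.0 and 106 to 12.4 and 27.1 CPM.

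In Wnt signaling 5 of 34 tested genes (14.7%) were higher and 4 (11.8%) lower, with a median log2 fold change of -0.08, and without 1 library 3 to 6 and 1 were. *Wnt5a* rose from 23.4 and 15 to 144 and 113 CPM (log2 fold change 2.74, SE 0.37, adjusted p = 0.0034), beside the inhibitors *Sost* and *Sostdc1* (log2 fold change 5.13, adjusted p = 0.04), and the secreted *Dkk3* fell (log2 fold change -3.28). *Sostdc1* had 4 and 0 counts in control and 107 and 14 in *Sox17*-*Erg* libraries, and its log2 fold change was 2.80 without *Sox17*-*Erg* replicate 1 (adjusted p = 0.319), 9.31 without control replicate 1 (0.124) and 4.28 without control replicate 2 (0.201). In the Day 3 libraries alone its adjusted p was 0.0808. In the IGF axis 3 of 16 were higher and 1 lower, as in each fit without 1 library. These are 18.8% and 6.25% of the IGF list, beside 7.19% and 5.13% of all tested genes, so the share lower was near that of all. *Igfbp3*, which carries IGFs in the circulation, rose from 18.1 and 26.4 to 736 and 530 CPM (log2 fold change 4.83, SE 0.42, adjusted p = 0.00048). *Igf1* rose from 10.2 and 8.97 to 125 and 65.4 CPM (log2 fold change 3.31), and the receptor substrate *Irs1* by 1.80. *Igfbp6* fell from 169 and 154 to 29.4 and 27.3 CPM (log2 fold change -2.51).

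**Figure D3:**
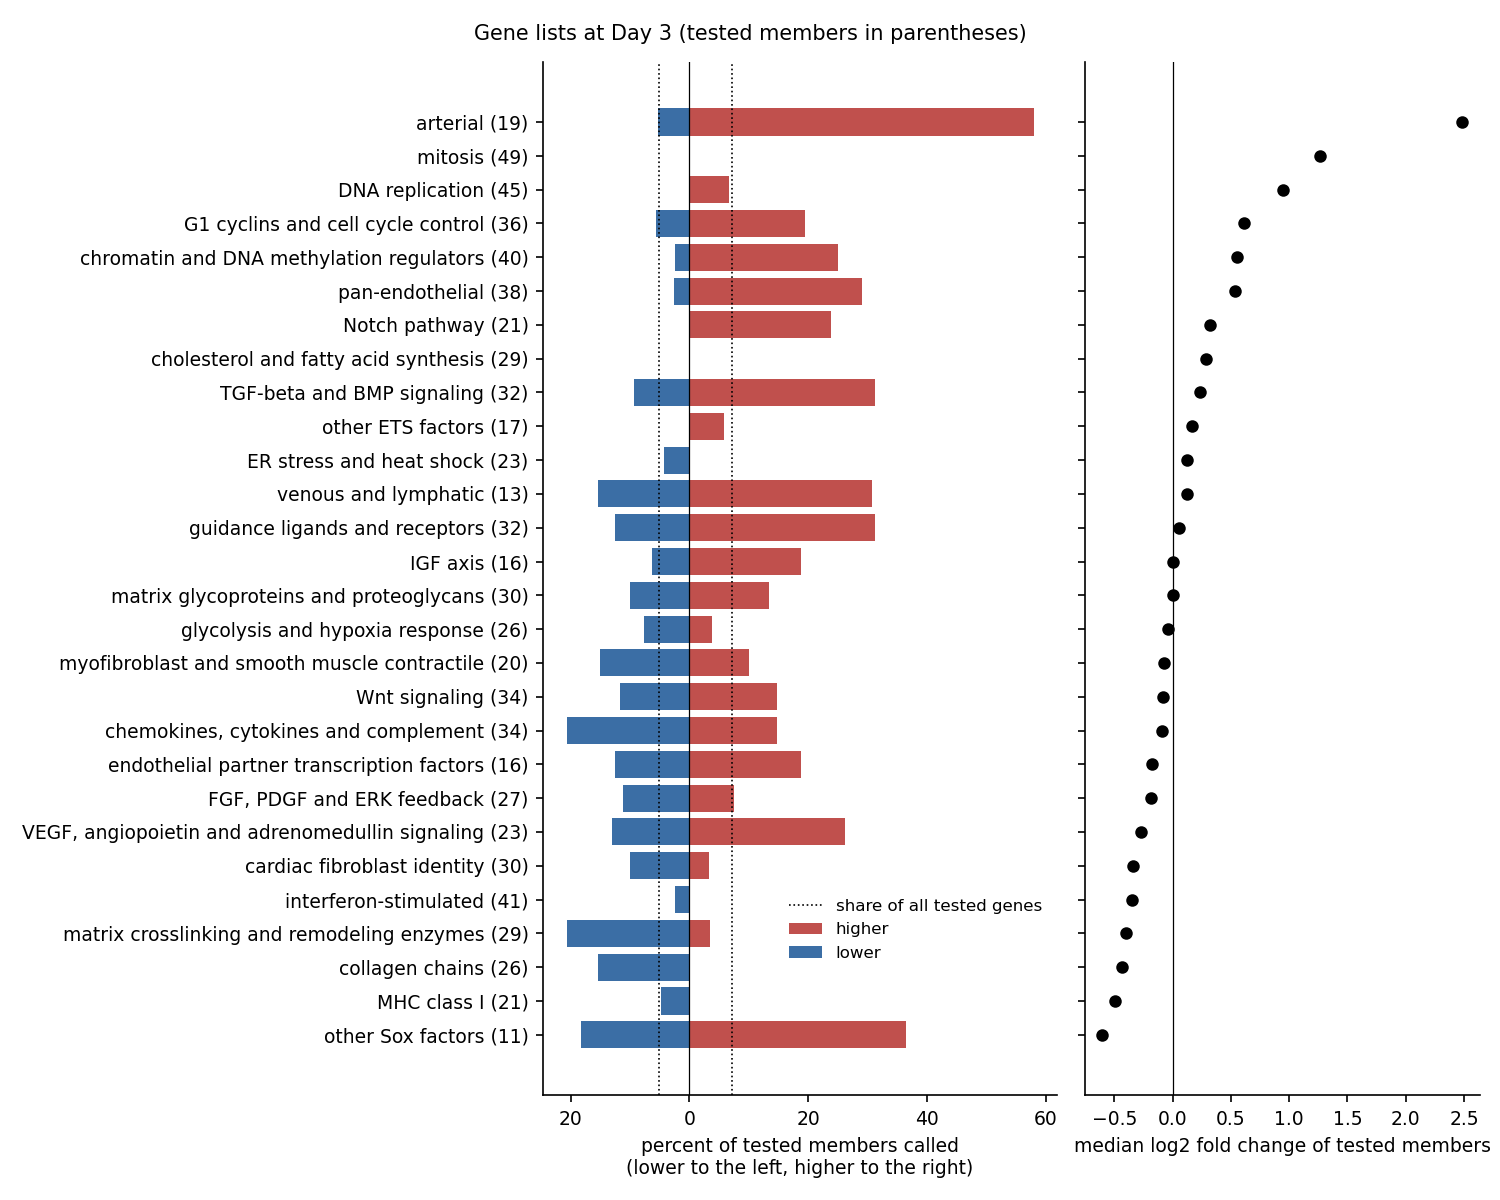
Left, the percent of tested members of each gene list called higher (red, to the right) or lower (blue, to the left) at Day 3, with dotted lines at the 7.19% and 5.13% of all tested genes. The list of the 2 reprogramming factors is left out. Right, the median log2 fold change of the tested members, of the lists drawn highest for the arterial list at 2.48 and then for the mitosis list at 1.27, of which no member was called by the fit over all libraries.

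The call of cell cycle genes depended on the fit. All 49 tested genes of a mitosis list and all 45 of a DNA replication list had a positive log2 fold change, with medians of 1.27 and 0.95. Both *Sox17*-*Erg* libraries lay above both control libraries in 49 of the 49 and in 44 of the 45 genes, where 64.0% of all tested genes had groups that did not overlap in either direction. Summed over the mitosis list, the control libraries had 1500 and 1245 CPM and the *Sox17*-*Erg* libraries 3536 and 2980 CPM. Over the DNA replication list they had 926 and 804 against 1691 and 1412 CPM.

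In the filtered fit over all 12 libraries 0 mitosis genes and 3 DNA replication genes passed the threshold by edgeR, where 24 and 30 had an unadjusted p under 0.05. These 3 were *Cdc45*, a helicase component, at 4.00 and 3.56 CPM against 13.2 and 9.87 CPM (log2 fold change 1.60), and the helicase subunits *Mcm7* (1.41) and *Mcm6* (1.13). In a fit of the 4 Day 3 libraries alone, which called 7.92% of all tested genes higher, 45 of the 49 mitosis genes and 20 of the 45 DNA replication genes passed. DESeq2, which called 10.1% higher, passed 10 and 11. With all 12 libraries but no filter on low counts, which called 5.91% of 25680 genes higher, 46 and 29 passed. With the replicate number as a block, which called 7.93% higher, 1 and 3 passed. Without 1 library, 0 and 0 to 3 passed. *Mki67*, the proliferation marker, had 172 and 136 CPM in control and 467 and 383 CPM in *Sox17*-*Erg* libraries (log2 fold change 1.46), with an adjusted p of 0.15 over all libraries, 0.000908 with no filter on low counts, 0.0171 in the Day 3 libraries alone and 0.138 by DESeq2. The median difference between replicates of the mitosis genes, in log2(CPM + 1), was 0.30 and 0.25 at Day 3 in control and *Sox17*-*Erg*, against 1.42 and 1.18 at Day 7 and 0.26 and 1.15 after 4 weeks in culture. The part of this spread in the calls was not tested.

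**Figure D4:**
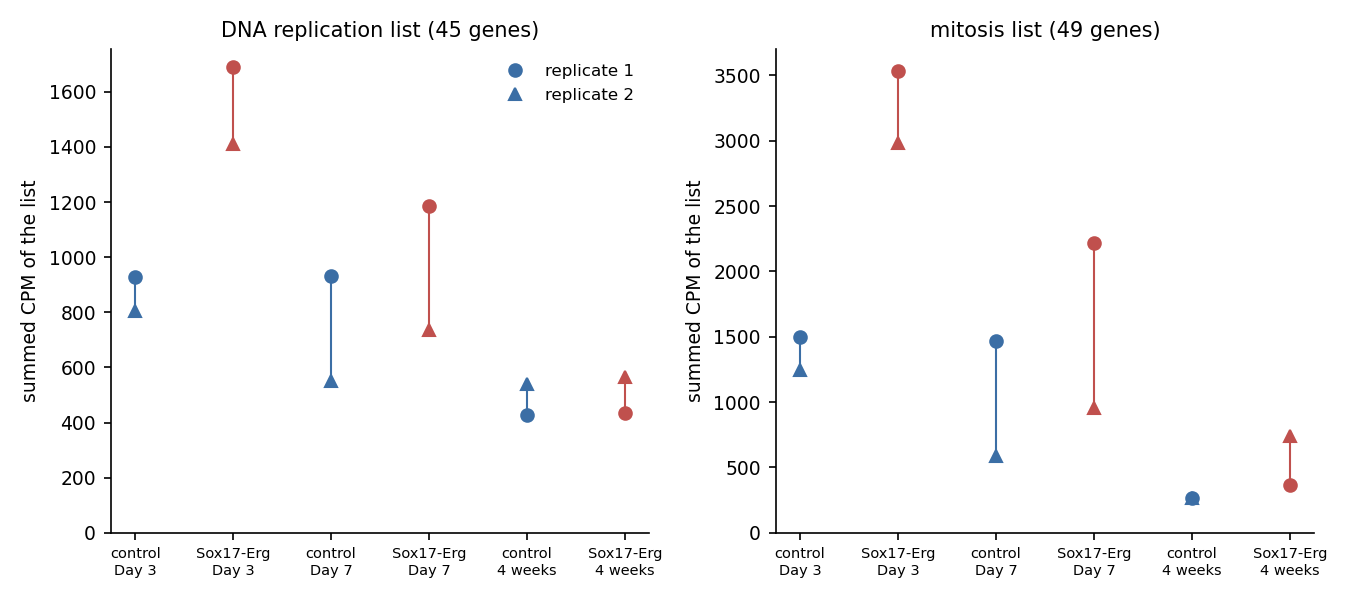
Summed CPM of the 45 DNA replication genes (left) and the 49 mitosis genes (right) in each of the 12 libraries, with blue for control, red for *Sox17*-*Erg*, circles for replicate 1 and triangles for replicate 2. At Day 3 the *Sox17*-*Erg* libraries had 3536 and 2980 CPM of mitosis genes against 1500 and 1245 CPM in control, while at Day 7 replicates of both groups were more than 2-fold apart, from 2216 to 958 CPM and from 1469 to 588 CPM.

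Of 36 genes of G1 control, 7 (19.4%) were higher and 2 (5.56%) lower, beside 7.19% and 5.13% of all tested genes. Without control replicate 2 or without *Sox17*-*Erg* replicate 1, 0 were higher by edgeR, without control replicate 1 there was 1, and 4 were without *Sox17*-*Erg* replicate 2. *Myc*, a driver of growth genes, rose from 23.2 and 19.2 to 66.7 and 50.5 CPM (log2 fold change 1.46, SE 0.22, adjusted p = 0.005), and *Mybl2*, an activator of mitotic genes, by 1.60. *Cdkn1c*, the cell cycle inhibitor p57, fell from 291 and 356 to 34.2 and 67.0 CPM (log2 fold change -2.68, SE 0.35, adjusted p = 0.003), as did the stress gene *Sesn1* (log2 fold change -1.29). Of 40 chromatin regulators, 10 (25%) were higher and 1 (2.5%) lower, with a median log2 fold change of 0.56. *Hmgb3*, a chromatin protein of proliferating progenitors, rose from 10.8 and 7.12 to 49.1 and 41.9 CPM (log2 fold change 2.34), the histone deacetylase gene *Hdac9* by 2.03 and the DNA methyltransferase gene *Dnmt3b* by 1.65. Of the chromatin list, 0 members were called higher by edgeR without control replicate 2 and 1 to 6 without another library.

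Immune and stress lists differed in how many members passed, where 7.19% of all tested genes were higher and 5.13% lower. The share lower was 2.44% in the interferon-stimulated list and 4.76% in the MHC class I list, not above that of all. Of 41 interferon-stimulated genes 0 were higher and 1 lower by edgeR, with 0 and 2 at an unadjusted p under 0.05 and 0 and 1 by DESeq2, and 0 to 4 were lower without 1 library. Of 21 genes of MHC class I presentation 0 were higher and 1 lower by edgeR, with 0 and 9 at an unadjusted p under 0.05 and 0 and 4 by DESeq2, and 0 to 2 were lower without 1 library. Of 34 chemokines, cytokines and complement genes, 5 (14.7%) were higher and 7 (20.6%) lower, and without 1 library 1 to 3 and 0 to 4 were. *Il6* rose from 1.24 and 0.509 to 4.61 and 4.70 CPM (log2 fold change 2.39) and *Cxcl5* by 2.27 from a low level, and both lost their calls whichever library was left out. The alarmin *Il33* had no more than 3 counts in either *Sox17*-*Erg* library and fell (log2 fold change -3.03), a size that rests on these few counts. Complement genes, named after their values were seen, were among those that fell, *C1s1* (log2 fold change -1.95), *C1ra* (-1.80) and *C3* (-1.72).

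In metabolism, 0 of 29 cholesterol and fatty acid genes were called by the fit over all libraries or by DESeq2. Of these 0 had an unadjusted p under 0.05, at a median log2 fold change of 0.29. In the Day 3 libraries alone 1 was higher, and with no filter on low counts 1. In glycolysis and hypoxia 1 of 26 (3.85%) was higher and 2 (7.69%) were lower, shares near the 7.19% and 5.13% of all tested genes, and without 1 library 1 was higher and 0 to 1 lower. The higher gene was *Pfkfb3*, the glycolytic regulator used by sprouting endothelium, from 22.4 and 24.3 to 60.8 and 53.3 CPM (log2 fold change 1.29, SE 0.13, adjusted p = 0.00094), and *Ndrg1*, a hypoxia-induced gene, fell (log2 fold change -1.82). Of 23 genes of ER stress and heat shock 0 were higher and 1 lower by the fit over all libraries. At an unadjusted p under 0.05 there were 2 and 3, by DESeq2 1 and 2, and in the Day 3 libraries alone 3 and 2.

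Markers of other cell types that a heart isolate can hold were read beside these results. All 14 tested cardiomyocyte markers had a negative log2 fold change, with 2 called (0 without *Sox17*-*Erg* replicate 1 and 1 to 2 without another library), and their summed level was 1548 and 903 CPM in control and 420 and 339 CPM in *Sox17*-*Erg* libraries. Most of that sum was *Tnnt2*, troponin T, at 1431 and 832 CPM against 356 and 298 CPM (log2 fold change -1.79, adjusted p = 0.0072). Epicardial and mesothelial markers summed to 951 and 417 CPM against 345 and 250 CPM, with 1 of 11 called lower, *Upk3b* (log2 fold change -2.56, adjusted p = 0.025). Of these 11, 7 were lower at an unadjusted p under 0.05, 7 by DESeq2, 7 with no filter on low counts and 8 with the replicate number as a block, and 0 to 3 without 1 library. Control replicate 1 was highest for both, and the part of such cells in the falls above was not tested.

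Macrophage markers summed to 466 and 313 CPM in control and 312 and 348 CPM in *Sox17*-*Erg* libraries, 0 of 12 were called by edgeR or DESeq2 and 0 had an unadjusted p under 0.05, and *Ptprc*, the pan-leukocyte marker CD45, was at 4.18 and 3.38 CPM against 3.04 and 2.63 CPM. Lymphocyte markers summed to between 1.39 and 1.78 CPM, and the tested erythroid marker lay between 0.694 and 0.776 CPM. Schwann and neural crest markers summed to 8.41 and 4.30 CPM in control and 4.96 and 2.84 CPM in *Sox17*-*Erg* libraries. Of these 1 of 6 was lower, a call lost when some single libraries were left out. Adipocyte markers summed to 129.5 and 154.9 CPM against 196.7 and 266.5 CPM, with 0 of 7 called by the fit over all libraries. At an unadjusted p under 0.05 1 was lower, and by DESeq2 1. In the Day 3 libraries alone 1 was higher, and with no filter on low counts 1 was higher and 1 lower. Of 10 smooth muscle and pericyte markers, 2 were higher, *Rgs5* (log2 fold change 3.02) and *Notch3* (1.19). Of 8 cardiac fibroblast markers 1 was lower by the fit over all libraries, 4 by DESeq2, 4 with no filter on low counts, 3 with the replicate number as a block and 0 to 3 without 1 library, and 4 had an unadjusted p under 0.05. They summed to 29990 and 36030 CPM in control and 25380 and 39400 CPM in *Sox17*-*Erg* libraries. The endothelial markers summed to 25.1 and 52.5 against 432 and 306 CPM.

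The Day 3 response was then followed to the later time points, where the same treatments were measured in other libraries. Of the 1115 higher genes, 1090 had a positive log2 fold change at Day 7 and 1007 at 4 weeks, and 701 and 596 were called in that direction. Of the 795 lower genes, 744 and 702 had a negative one, and 432 and 435 were called. Tested as a difference of effects, 13 of the 15506 genes (0.0838%) had a Day 7 effect that differed from their Day 3 effect, and 498 (3.21%) had a 4-week effect that did. Of the 1115 higher genes, the effect was smaller or turned at 4 weeks in 48 and larger in 89, and of the 795 lower genes in 48 and in 8. Called in the opposite direction were 3 higher and 2 lower genes at Day 7, and 12 and 17 at 4 weeks. These genes were chosen by their Day 3 effect, which also enters the difference. A smaller later effect can thus arise in part from the choice. Without any 1 of the Day 3 libraries, 1 to 2 genes differed at Day 7 and 175 to 253 at 4 weeks.

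For some genes that rose at Day 3 the difference from control was smaller or turned at 4 weeks. *Igfbp3* had a log2 fold change of 4.83 at first, of 0.73 on Day 7 and of -0.84 after 4 weeks, and its effect differed from Day 3 at both times (adjusted p = 0.043 and 0.0022). *Dio2* went from 5.65, fitted from 3 and 3 control counts, to 0.59 at 4 weeks, *Gsta4* from 3.91 to 0.48, *Epha4*, a receptor for ephrins, from 1.93 to -1.07, *Nrp1* from 2.11 to 0.25 and *Myc* from 1.46 to 0.03. In all 6 the 4-week control libraries lay above the Day 3 control libraries. *Igfbp3* was at 1641 and 1357 CPM in control at 4 weeks, from 18.1 and 26.4 CPM at Day 3, while *Sox17*-*Erg* libraries had 746 and 929 CPM, from 736 and 530 CPM. *Nrp1* went from 54.7 and 55.8 to 323 and 264 CPM in control and was at 317.5 and 382.8 CPM in *Sox17*-*Erg* libraries at 4 weeks. The levels of *Igfbp3*, *Nrp1*, *Dio2* and *Epha4* in *Sox17*-*Erg* libraries were thus not lower at 4 weeks than at Day 3, or overlapped. Those of *Gsta4* (25.3 and 21.9 CPM, from 98.6 and 94.2 CPM) and *Myc* were lower. Levels within a group were not tested between times. *Col4a3* and *Col4a4* had log2 fold changes of -1.58 and -1.83 at 4 weeks, when both groups had higher levels than at Day 3, *Col4a3* with 280 and 283 CPM in control and 92 and 95.7 CPM in *Sox17*-*Erg* libraries.

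Other differences were larger later. *Pecam1* went from 0.67 at Day 3 to 4.21 at 4 weeks, with 117 and 94.6 CPM in *Sox17*-*Erg* libraries at 4 weeks against 3.46 and 8.17 CPM in control. *Pdgfb* went from 5.08 to 9.11, *S1pr1* from 4.31 to 6.87 and *Bcl6b* from 2.58 to 7.86. *Sema3g* reached 12.34. *Postn*, from 0.35 to 4.74, was lower in both groups at 4 weeks, at 60.4 and 47.5 CPM in control, from 5120 and 5992 CPM, and at 1542 and 1346 CPM in *Sox17*-*Erg* libraries, from 5933 and 8196 CPM. The control libraries at 4 weeks held 3 and 4 counts of *Bcl6b*, 6 and 4 of *Sema3g* and 0 and 0 of *Prdm1*, so that fitted values of these genes depend on the prior count. *Sox17* and *Erg* themselves did not pass this test at 4 weeks (adjusted p = 0.23 and 0.37).

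**Figure D5:**
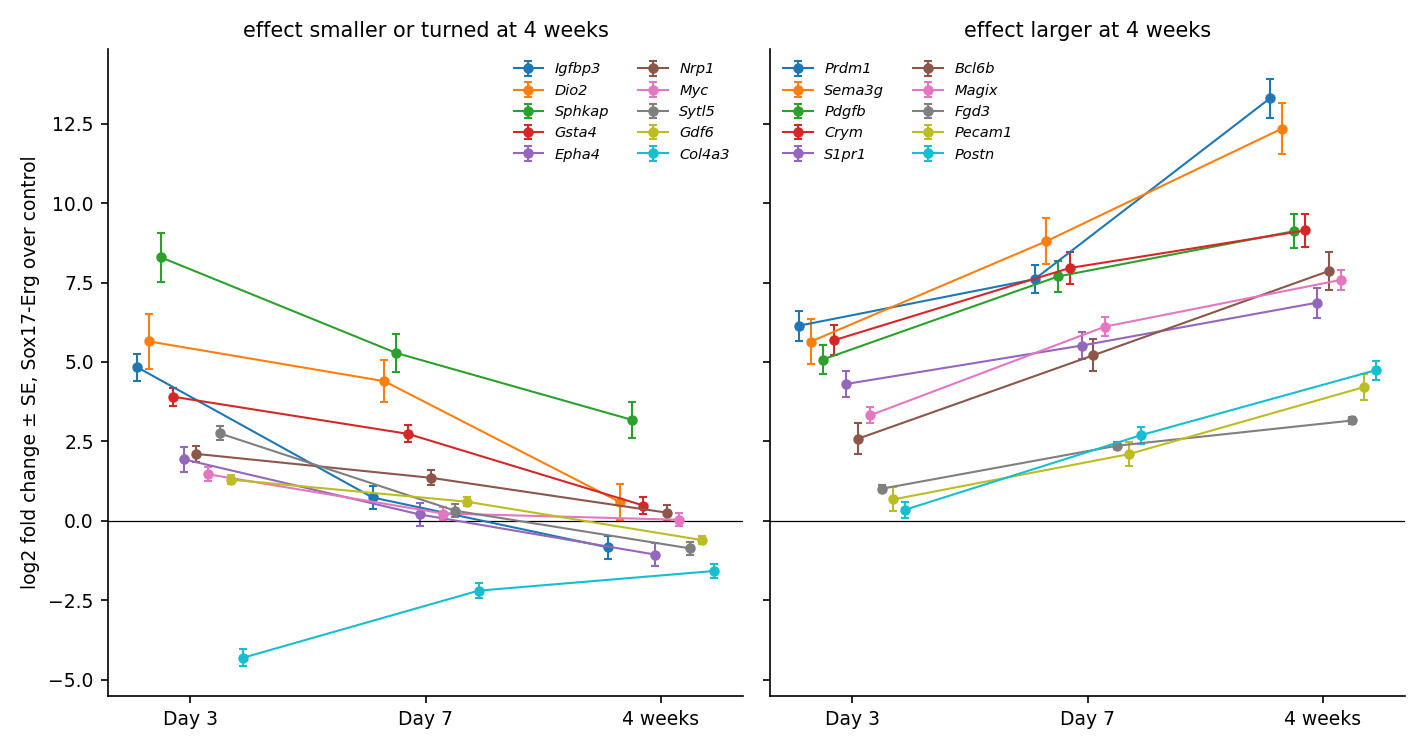
Log2 fold change between *Sox17*-*Erg* and control at Day 3, Day 7 and 4 weeks for 20 genes whose 4-week effect differed from the Day 3 effect, with bars of 1 SE. On the left the effect shrank or turned, as in *Igfbp3* from 4.83 to -0.84, and on the right it grew, as in *Pecam1* from 0.67 to 4.21.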

How the data were processed

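Bulk RNAseq was measured in 12 libraries, of which the 4 at Day 3 are described here. The authors prepared stranded, paired-end mRNA libraries, trimmed high GC content with BBDuk and ran Salmon for quantification. The deposited values are whole numbers, taken here as Salmon's estimated counts of a gene, rounded and not scaled for depth. The submitters' processing notes name bcl2fastq 2.20.0 and the build mm10, while the Salmon version and annotation are not given in the sources used here. Genes were tested with edgeR 4.0.16 in R 4.3.3 (quasi-likelihood, TMM, filterByExpr with a minimum count of 10 and total of 15), in 1 fit over 12 libraries with 6 residual degrees of freedom and a Benjamini-Hochberg adjusted p under 0.05. The SE is the log2 fold change over the square root of F. DESeq2 1.42.0 and other settings were alternatives. With 2 libraries a side an exact permutation test of a single gene cannot go below p = 0.333, so calls come from the fit across all genes.

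Named genes are the reprogramming factors, the called genes with the largest log2 fold changes or lowest p in each direction, up to 4 called members of each list, a set of standard markers, and the genes whose effect changed most over time. The text describes 110 of the genes so named, and the others (*Cd34*, *Tie1*, *Pdgfa*, *Pdgfc*, *Notch3*, the complement genes and the single markers of other cell types) were chosen after their values were seen. The members and lists were chosen with earlier results of these data known. Symbols were matched to GENCODE M21 (GRCm38) for 35493 of 35727 genes. Of the 110 genes, 27 overlap an annotated gene on the other strand and 7 one on the same strand, and counts of these may be shared. The scripts were tested on simulated data. A floor of 3 counts per library was used for bounds, which set the mean of the 2 libraries of the higher group against it. They do not cover the spread between libraries, or the counting error of libraries that held counts near the floor. *H19* was not analysed here.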

Additional observations from a re-analysis of the deposited data

Results flagged for a closer look

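The effect of *Sox17*-*Erg* at a later time minus the effect at Day 3 was tested in edgeR, and the following named genes had a difference past the threshold, given on the log2 scale. At Day 7 the difference was -4.1 for *Igfbp3*, -2.44 for *Sytl5*, a synaptotagmin-like gene of vesicle transport, 1.35 for *Fgd3*, an exchange factor for Cdc42, 2.8 for *Magix* and 2.9 for *Pcyt1b*, an enzyme of phosphatidylcholine synthesis.

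At 4 weeks the effect of several genes that rose at Day 3 was smaller or turned. The difference was -5.67 for *Igfbp3*, -5.12 for *Sphkap*, -5.06 for *Dio2*, -3.62 for *Sytl5*, -3.43 for *Gsta4*, -3.0 for *Epha4*, -1.9 for *Gdf6*, -1.85 for *Nrp1* and -1.43 for *Myc*. In all 9 genes both control libraries were higher at 4 weeks than at Day 3, while both *Sox17*-*Erg* libraries were lower only in *Sphkap*, *Sytl5*, *Gsta4*, *Gdf6* and *Myc*. Genes that fell at Day 3 were nearer to control or turned, by 2.96 for *Pgm5*, 2.73 for *Col4a3*, 2.23 for *Fgf7*, 2.2 for *Col4a4* and 1.95 for *Fmod*. In *Col4a3*, *Col4a4* and *Fmod* the levels of both groups were higher at 4 weeks than at Day 3.

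The effect was larger at 4 weeks by 7.16 for *Prdm1*, 6.7 for *Sema3g*, 5.28 for *Bcl6b*, 4.26 for *Magix*, 4.04 for *Pdgfb*, 3.45 for *Crym*, 2.59 for *Pcyt1b*, 2.56 for *S1pr1* and 2.15 for *Fgd3*. *Pecam1* and *Postn*, which did not pass the test at Day 3, had differences of 3.54 and 4.4. *Postn*, *Pcyt1b* and *Fgd3* were lower at 4 weeks than at Day 3 in both groups, while the other genes with a larger effect at 4 weeks were higher in both *Sox17*-*Erg* libraries. Levels within a group were not tested between times. The 4-week differences of *Bcl6b*, *Crym*, *Dio2*, *Magix*, *Pdgfb*, *Prdm1*, *Sema3g* and *Sphkap* rest on at least 1 control library with no more than 10 counts at Day 3 or 4 weeks, so that their size depends on the prior count.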

How the results depend on the processing

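Of the counts of 1115 higher and 795 lower genes, DESeq2 gave 1410 and 1290, no filter on low counts 1518 and 1333, a mean of at least 1 CPM 958 and 1034, the 4 Day 3 libraries alone 1228 and 895, an adjusted p under 0.01 304 and 117, and a log2 fold change of at least 1 474 and 460. Leaving out 1 library gave 204 to 824 higher and 66 to 656 lower genes. The 13 genes whose effect differed at Day 7 were 278 by DESeq2, 452 with no filter, 1 at an adjusted p under 0.01 and 1 to 2 without 1 library. The 498 at 4 weeks were 1055, 1179, 123 and 175 to 253 in the same order. DESeq2 size factors and a GC offset kept these 4 counts within 1.5 times, and no setting called a Day 3 gene in the other direction. The cause was not tested.

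The labels give replicates only a number, and same-numbered libraries deviated together at Day 3 with a correlation of 0.33 over 2 pairs. With the replicate number as a block, 1230 genes were higher and 1030 lower, and 17 and 621 differed at Day 7 and 4 weeks. Log2 fold changes near 0 turned sign. *Col1a1* had -0.0232 in the Day 3 libraries alone, -0.0201 with DESeq2, -0.0202 with its size factors, -0.0527 with at least 1 CPM, -0.0107 with the block and -0.38 to 0.26 without 1 library. *Vwf* had -0.0115 in the Day 3 libraries alone, -0.0269 with DESeq2, -0.0143 with at least 1 CPM and -0.67 to 0.81 without 1 library.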
